A study of Mus musculus with 2 samples.

Results

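Protease inhibitors of 4 families were followed through the epithelium of the mouse oviduct: serpins, Kazal inhibitors, TIMPs and cystatins. The members were taken by gene symbol, as all genes whose symbols begin with Serpin or Spink, Timp1 to Timp4, Cst3 and Cstb. They came to 87 of the 54674 genes that the deposited tables list: 68 serpins, 13 Kazal genes, 4 TIMPs and 2 cystatins. The cells came from C57BL/6 mice in 2 libraries, 1 of adult oviduct at estrus and 1 of oviduct at P4 (postnatal day 4), with no label that tells how many animals gave each. After enzymatic dissociation, cells were sorted, with dead cells removed and epithelium enriched by use of antibodies to Epcam and CD45. Then 10x Chromium 3' V2 libraries were made.

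Protease inhibitors set where and for how long proteases act outside and inside cells. Most serpins offer a loop that the protease cuts, after which the enzyme is trapped, while Kazal inhibitors and TIMPs block the active site as tight lids and cystatins do so for the cysteine cathepsins. The oviduct lining meets the egg, sperm and leukocyte enzymes in a fluid made by secretory cells and moved by multiciliated cells.

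The adult table held 1401641 UMI (unique molecular identifiers, each counting 1 captured RNA molecule) in 406 cells, with a median of 3232 per cell, and the P4 table held 2123202 UMI in 263 cells, with a median of 7585. Of 807 adult columns, 401 barcodes stood under both column prefixes, and each barcode was counted once; the adult and P4 libraries shared 0 barcodes. The authors' cluster numbers were used. Adult cluster 1 (183 cells) held 12 of 12 multiciliated markers at a summed 171 UMI per 10000 and is called multiciliated-like, and adult cluster 4 (31 cells) had Dcpp3, Agr2 and Ovgp1 among its 10 leading genes and is called secretory-like. Secretory markers were not particular to cluster 4: they summed to 441 there, 113 in cluster 0 and 9.69 in cluster 1. All 8 were at least 2-fold higher in cluster 0 than in cluster 1. In cluster 4 over cluster 0, 4 were higher, 3 were within 2-fold and Muc1 was lower. Adult clusters 0 (130 cells), 3 (37 cells) and 5 (25 cells) and P4 clusters 1 (95 cells) and 0 (168 cells) are kept by number. A level is the pooled UMI of a gene per 10000 UMI of a group, with an exact 95% Poisson interval in brackets. There is 1 library per age and so no replicate, no test was run, and all intervals cover counting error only. The clusters were made from expression, so contrasts between them are descriptions; Timp4 is among the 10 leading genes of adult cluster 1, and Serpina1e among those of adult cluster 5 and P4 cluster 1.

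Of the 87 members, 32 had a UMI in the adult library, 33 in the P4 library and 28 in both. The other 50 had 0 UMI in both, including 6 that the adult table does not list; at these depths a count of 0 allows up to 0.0214 per 10000 in the adult library and 0.0141 at P4. The 18 members with at least 20 UMI in a library are described by name: 10 serpins, 2 Kazal genes, the 4 TIMPs and both cystatins. Another 19 had fewer, among them Serpina1a, Serpina1b, Serpina1c, Serpina1d, Serpina3n, Serpina9, Serpina11, Serpinb1b, Serpinb2, Serpinb5, Serpinb8, Serpinb10, Serpinb12, Serpinc1, Serpini1, Spink2, Spink10 and Spink13. Over the totals of the genes that both tables list, all members together took 26.0 UMI per 10000 in the adult library and 14.9 at P4. By family the summed levels on these totals were 11.0 in the adult and 5.69 at P4 for cystatins, 7.34 in the adult and 2.21 at P4 for TIMPs, 1.02 in the adult and 0.310 at P4 for Kazal genes, and 6.65 at both ages for serpins. Timp4 alone took 5.80 of the TIMP level in the adult and 0.00544 at P4. Timp2 was lower in the adult than at P4, at 0.930 against 1.69, with Timp1 at 0.254 against 0.163 and Timp3 at 0.363 against 0.359.

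**Figure D1:**
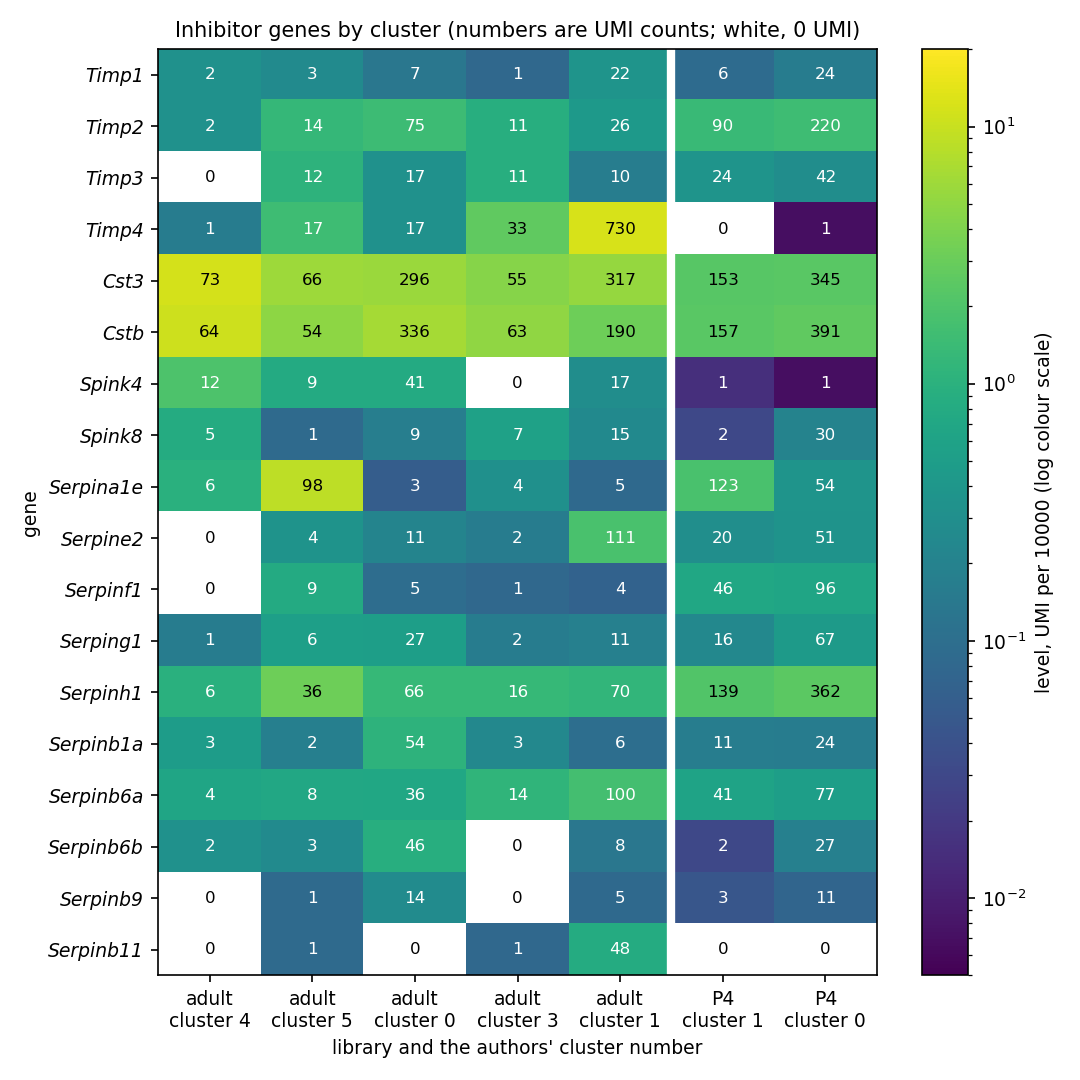
Levels of the 18 inhibitor genes with at least 20 UMI in a library, by library and cluster. Colour gives UMI per 10000 of the cluster on a log scale, the number in each square is the UMI count and white squares have 0 UMI. Timp4 stands out in adult cluster 1 (730 UMI) and Serpina1e in adult cluster 5 (98 UMI), and Cst3 and Cstb are counted in every cluster.

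Genes with a UMI in 10% or more of the cells of one side or the other were taken as measured, and those whose levels, after adding 0.1 per 10000, were at least 2-fold apart as different. A gene low on 1 side could pass this filter through the other side alone, which favours a difference, among members and all genes alike. Ratios printed here are of the plain levels. Between adult cluster 0 and multiciliated-like cluster 1, 10 of 12 measured members differed, 6 higher and 4 lower in cluster 0, where 35.7% of 5494 genes differed (12.7% higher, 23.0% lower). Serpinb1a, Serpinb6b, Serping1 and Spink4 passed the filter through cluster 0 alone, and Serpinb11 and Serpine2 through cluster 1 alone. The call of Serping1 held in 4 of 9 alternatives to these settings. The median log2 fold of the members was 0.56, against -0.18 for all measured genes. Dissociation stress genes differed too, at a summed 127 in cluster 0 and 43.9 in cluster 1 with all 14 detected in both, and their part in the result was not tested. Between adult clusters 3 and 1, 7 of 13 differed, 4 higher and 3 lower in cluster 3, with 20.2% of 5483 genes different (11.7% higher, 8.54% lower). Of these 7, all but Timp4 passed the filter through 1 side alone. Serpina1e was called higher on 4 UMI in cluster 3 against 5 in cluster 1, with a ratio interval of 0.763 to 17.9. The stress genes summed to 167 in cluster 3, with all 14 detected, and their part in this comparison was not tested either. Between secretory-like cluster 4 and cluster 0, 5 of 10 differed, 2 higher and 3 lower, with 19.7% of 4474 genes different (8.99% higher, 10.7% lower). The 3 lower, Serpinb6b, Serping1 and Timp2, all passed the filter through cluster 0 alone. Serpinb6b had 2 UMI in cluster 4 (ratio interval 0.0429 to 1.40) and Serping1 had 1 (0.00759 to 1.89). Neither of these was apart from cluster 0 beyond counting error. The stress genes summed to 36.2 in cluster 4 with 12 of 14 detected. Between clusters 5 and 0, 7 of 14 differed, 5 higher and 2 lower, with 21.6% of 5835 genes different (14.8% higher, 6.89% lower). Serpina1e, Serpinf1 and Timp3 passed the filter through cluster 5 alone, and Serpinb1a through cluster 0 alone. For cluster 4 over cluster 0, scaling to totals without ribosomal protein and mitochondrial genes gave 1 higher and 4 lower of 10 measured members. Median of ratios scaling gave 0 higher and 4 lower of 10. These scalings moved the log2 folds of that comparison by -0.14 and -0.30, and the first moved those of cluster 0 over cluster 1 by 0.27. The share of all genes was not computed under these scalings.

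Between P4 clusters 1 and 0, 3 of 14 measured members differed, 1 higher and 2 lower, with 2.79% of 8721 genes different (1.41% higher, 1.38% lower). The 2 lower, Serpinb6b and Spink8, passed the filter through cluster 0 alone. Both calls were lost with 0.5 per 10000 added in place of 0.1. Between the adult and P4 libraries, compared on the 26897 genes of both tables, 6 of 14 differed, 5 higher and 1 lower in the adult, with 21.8% of 7283 genes different (11.5% higher, 10.4% lower). Timp4 and Spink4 passed the filter through the adult side alone, and Serpinf1 and Serpinb1a through P4 alone. Totals without ribosomal protein and mitochondrial genes moved the log2 folds by -0.18 and gave 2 higher and 2 lower of 14 measured members. Without cells holding 2 or more non-epithelial markers, which left 255 adult and 6 P4 cells, 1 of 11 measured members was higher and 4 were lower. For adult clusters 0 and 4 together against P4, 9 of 15 differed, 6 higher and 3 lower, with 21.0% of 7048 genes different (6.46% higher, 14.6% lower). Serpinb6b, Spink4 and Timp4 passed the filter through the adult side alone, and Serpina1e and Serpinf1 through P4 alone. Without those marker cells 0 of 11 measured members were higher and 3 lower, with 96 adult and 6 P4 cells left. The share of all genes was not computed under these changed settings. Age, estrous stage, library, sort, depth and annotation cannot be told apart in either comparison, and both use the same P4 cells.

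Among the TIMPs, which block matrix metalloproteinases and related ADAM enzymes, Timp4 had the sharpest distribution. Its level was 0.164 (1 UMI) in cluster 4, 1.52 (0.884 to 2.43) in cluster 5, 0.331 (0.193 to 0.531) in cluster 0, 2.68 (1.84 to 3.76) in cluster 3 and 12.3 (11.4 to 13.2) in multiciliated-like cluster 1. The level in cluster 5 rested on few cells, with 5 or more Timp4 UMI in 2 of 25. Cluster 1 held 91.5% of the adult Timp4 UMI, with 42.3% of all adult UMI. The level in cluster 0 was 37.2-fold lower than in cluster 1 (interval 23.1 to 64.2), and that in cluster 3 was 4.60-fold lower (3.25 to 6.73). A Timp4 UMI was found in 12.3% of cluster 0 cells and in 79.2% of cluster 1 cells, at median depths of 4107.5 UMI in cluster 0 and 3165 in cluster 1; background RNA was not measured. With each cell thinned to 1000 UMI the shares were 6.25% in cluster 0 and 63.1% in cluster 1. The cluster 1 cells were not alike: 68 of the 183 held 5 or more Timp4 UMI, and a single cell reached 19.

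Timp4 was almost uncounted at P4, with 798 UMI in the adult library against 1 UMI at P4 (interval of the adult over P4 ratio, 191 to 42169.8). Multiciliated markers summed to 171 in adult cluster 1 and to 84.2, with 12 of 12 detected, in the 6 P4 cells that had at least 30 UMI of them per 10000, a threshold set after values were seen. Those P4 cells had 0 Timp4 UMI of 97013. Against a floor of 3 counts in them, the level in adult cluster 1 was 39.8-fold higher (exact lower limit of the ratio, 32.3). Timp4 was also at 0 in the 14 P4 cells that the authors' joint clustering put in merged cluster 0 beside 197 adult cells. Timp4 lies on chromosome 6, from 115241892 to 115252205 on the minus strand of GRCm38, inside Syn2, a synapsin gene, and Gm17482 on the other strand. How the authors' counting treated strand is not given in the sources used here, so reads of these genes may not be told apart from those of Timp4. The 250 bases before its RefSeq start (GRCm38.p6, chr6:115252206-115252455, minus strand) are shown because this gene has the widest range of levels between clusters and ages. They hold neither the RFX half-site GTTGCCA nor the forkhead motif GTAAACA, which regulators of cilium genes bind, on either strand. The first occurs in 3.66% and the other in 3.17% of 32851 RefSeq promoters in the same window.
Timp4 upstream: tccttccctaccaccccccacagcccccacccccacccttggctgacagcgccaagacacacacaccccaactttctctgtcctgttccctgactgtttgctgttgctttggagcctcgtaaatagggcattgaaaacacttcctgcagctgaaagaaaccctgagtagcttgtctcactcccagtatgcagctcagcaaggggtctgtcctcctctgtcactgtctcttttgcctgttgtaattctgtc

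Timp2, which both inhibits metalloproteinases and helps activate Mmp2, ran the other way among adult cells. It stood at 1.46 (1.15 to 1.83) in cluster 0 and 0.439 (0.287 to 0.643) in cluster 1, a 3.33-fold higher level (2.11 to 5.42), and at 0.327 (2 UMI) in cluster 4. The ratio of cluster 4 over cluster 0 was 0.224, with an interval of 0.0266 to 0.837. At P4 Timp2 was spread over both clusters, at 1.36 in cluster 1 and 1.51 in cluster 0, and the adult library was 1.81-fold lower than P4 (1.47 to 2.24). Timp2 overlaps Cep295nl on the same strand, and reads of these genes may not be told apart.

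Timp3, which binds to the matrix and also inhibits ADAM enzymes, was low everywhere, with 50 UMI in the adult library and 66 at P4. It was higher in cluster 3, at 0.893 (11 UMI), than in cluster 1, at 0.169 (10 UMI), a ratio of 5.29 (2.04 to 13.9). Timp1, a secreted inhibitor of many metalloproteinases, had 35 UMI in the adult library and 30 at P4. Of its adult UMI, 14 came from 1 cell of cluster 1, and the 2 adult cells that the joint clustering placed among P4 cells in merged cluster 1 also held 13 Serpine2, 12 Serpinh1 and 9 Timp4 UMI. Timp1 and Timp3 lie inside Syn1 and Syn3 on the other strand, as Timp4 lies inside Syn2.

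**Figure D2:**
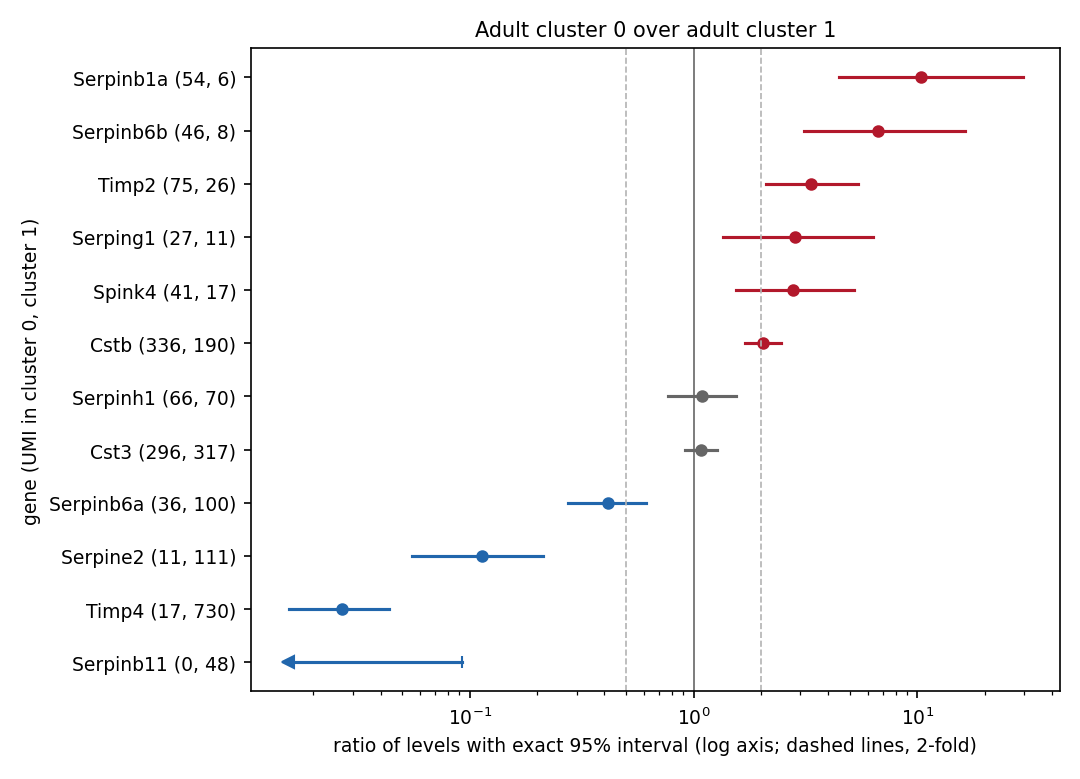
Ratio of levels, adult cluster 0 over adult cluster 1, for the 12 measured members on a log axis, with exact 95% intervals for counting error and UMI counts beside each name. Red genes are at least 2-fold higher and blue genes at least 2-fold lower in cluster 0 after adding 0.1 per 10000, and the arrow for Serpinb11 (0 and 48 UMI) is open below its upper limit. Timp4 and Serpinb11 lie lowest and Serpinb1a highest.

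The cystatins, inhibitors of cysteine cathepsins, were counted in most cells of both libraries. Cst3, the secreted cystatin C, had 807 UMI in 68.7% of adult cells and 498 UMI in 76.0% of P4 cells, at the greater depth per P4 cell; in cells thinned to 1000 UMI the shares were 42.9% in the adult and 20.5% at P4. Its level was 11.9 in secretory-like cluster 4, while the intervals of adult clusters 5 (5.89), 0 (5.77), 3 (4.47) and 1 (5.35) overlap. Cluster 4 was 2.07-fold above cluster 0 (1.58 to 2.68), a call that held in 2 of 8 alternatives, with log2 folds of 0.61 to 1.49. On the shared genes the adult level was 5.86 and the P4 level 2.71, a ratio of 2.17 (1.93 to 2.43), called higher in 7 of 10 alternatives with log2 folds of 0.43 to 1.18.

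Cstb, the intracellular cystatin B, had its highest adult level in secretory-like cluster 4 and its lowest in the multiciliated-like one. It stood at 10.5 (8.07 to 13.4) in cluster 4, 4.82 in cluster 5, 6.55 (5.87 to 7.29) in cluster 0, 5.11 in cluster 3 and 3.21 (2.77 to 3.70) in cluster 1. Cluster 0 was 2.04-fold higher than cluster 1 (1.70 to 2.45), on the edge of the 2-fold limit, a call that held in 7 of 9 alternatives. At P4 it was 2.37 in cluster 1 and 2.68 in cluster 0, which did not differ beyond counting error (0.731 to 1.07).

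The Kazal family was carried by Spink4, best known from goblet cells of the gut, and Spink8. Spink4 had 79 UMI in the adult library and 2 UMI at P4, a ratio of 52.8 with an interval of 14.1 to 443. Its adult UMI were in clusters 4 (12 UMI, 1.96 per 10000), 5 (9 UMI, 0.803), 0 (41 UMI, 0.799) and 1 (17 UMI, 0.287), with 0 in cluster 3, whose floor of 3 counts is 0.244. The level in cluster 0 was 2.79-fold that of cluster 1 (1.55 to 5.23). The excess of cluster 4 over cluster 0 (ratio 2.46, interval 1.18 to 4.76) rested on 4 cells and was held in 3 of 8 alternatives. Spink8 had 37 UMI in the adult library and 32 at P4; in P4 cluster 1 it had 2 UMI, against 30 UMI in P4 cluster 0 (ratio 0.147, interval 0.0170 to 0.579).

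Serpina1e is 1 of several mouse copies of the gene of alpha-1-antitrypsin, the plasma inhibitor of neutrophil elastase made in liver. In adult cells it had 116 UMI, of which 98 lay in cluster 5, with 6 in cluster 4, 3 in cluster 0, 4 in cluster 3 and 5 in cluster 1. Its level was 8.74 (7.10 to 10.7) in cluster 5 and 0.0585 (3 UMI) in cluster 0, a ratio of 149 with an interval of 49.7 to 737. A few cells carried it: 13 of 25 cluster 5 cells had a UMI, 7 of them 5 or more, and single cells held 29 and 27 of the 98 UMI. Cluster 5 held 7 cells with 10 or more smooth muscle UMI, a threshold set after values were seen, and Serpina1e was at 0 UMI in all 7; the 98 UMI were in the other 18 cells, at 18.1 per 10000. At P4 the gene was spread more widely, with 123 UMI in 44.2% of cluster 1 cells and 54 UMI in 19.6% of cluster 0 cells. The P4 level was 1.86 (1.54 to 2.21) in cluster 1 and 0.370 (0.278 to 0.482) in cluster 0, a ratio of 5.02 (3.62 to 7.05), and it was called higher in all 8 alternatives. With cells thinned to 1000 UMI the shares were 15.8% in cluster 1 and 1.79% in cluster 0. The libraries as wholes were close, at 0.843 in the adult and 0.962 at P4 (ratio interval 0.687 to 1.11), but adult clusters 0 and 4 together, at 0.160, were 6.03-fold below P4 (3.11 to 13.4). This comparison leaves out cluster 5, and the call was lost with the mean over cells (log2 fold -0.98), 1 of 8 alternatives. By the joint clustering the adult Serpina1e UMI lay mostly in merged clusters 2 (49 UMI, 0.876 per 10000) and 4 (58 UMI, 5.14 per 10000).

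The other copies had 0 UMI in adult cells, which allows up to 0.0214 per 10000. At P4, Serpina1a had 4 UMI, Serpina1b 3, Serpina1c 2, Serpina1d 5 and Serpina1f 0, and the copies summed to 191 UMI, of which Serpina1e made 177. All these copies lie on chromosome 12, Serpina1e from 103946931 to 103958975 on the minus strand. The coding sequences of Serpina1a to Serpina1e, each of 1242 bases in GENCODE, differ at 86 positions (6.92%), and Serpina1e is 96.3% to 96.5% identical to the others. In the last 400 bases of its transcript, where 3' libraries read, 18.8% of the 50-base words also occur in another gene, against 37.9% for Serpina1b to 54.7% for Serpina1a, so a read within such a word cannot be given to 1 copy. The other 17 named members share 0 such words with another gene. The differences between copies cluster in the part that codes for the reactive loop which a protease cuts. The 60 bases with the most variable positions, 18, run from coding base 1102 to 1161 and are shown because they set the copies apart; capitals mark bases that differ from Serpina1e.
Serpina1a: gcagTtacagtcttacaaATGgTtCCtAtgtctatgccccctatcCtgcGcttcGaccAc
Serpina1b: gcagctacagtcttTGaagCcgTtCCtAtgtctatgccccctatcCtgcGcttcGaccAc
Serpina1c: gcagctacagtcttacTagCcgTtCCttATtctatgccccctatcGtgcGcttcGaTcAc
Serpina1d: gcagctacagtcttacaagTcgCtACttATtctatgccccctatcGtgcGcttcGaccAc
Serpina1e: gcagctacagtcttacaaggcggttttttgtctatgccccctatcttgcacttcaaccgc

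**Figure D3:**
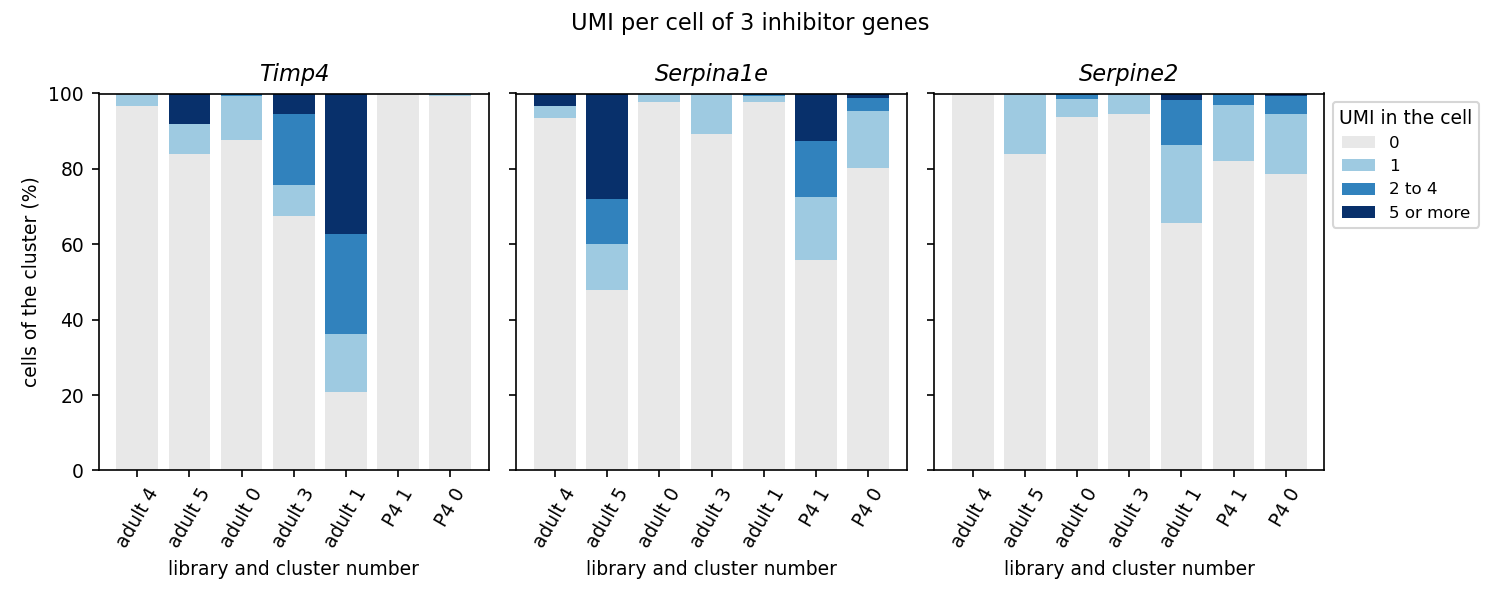
Share of cells (%) with 0, 1, 2 to 4 or 5 or more UMI of Timp4, Serpina1e and Serpine2, by library and cluster. In adult cluster 1, 37.2% of cells held 5 or more Timp4 UMI, and in adult cluster 5, 28.0% held 5 or more Serpina1e UMI; at P4 nearly every cell held 0 Timp4 UMI.

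Serpine2, protease nexin 1, an inhibitor of thrombin and plasminogen activators, shared the cluster preference of Timp4. It stood at 0.214 (0.107 to 0.384) in cluster 0 and at 1.87 (1.54 to 2.26) in cluster 1, a ratio of cluster 0 over cluster 1 of 0.114 (0.0555 to 0.213), and had 0 UMI in cluster 4 and 2 UMI in cluster 3. Cluster 1 held 86.7% of its adult UMI. Unlike Timp4 it was also counted at P4, at 0.302 in cluster 1 and 0.349 in cluster 0. In the 6 P4 cells with at least 30 multiciliated UMI per 10000 it had 1 UMI (0.103 per 10000). Adult cluster 1 over these cells gave a ratio of 18.2 (3.20 to 724). In the 14 P4 cells of merged cluster 0 it had 5 UMI (0.422 per 10000). The adult library was 2.41-fold higher than P4 (1.79 to 3.27), a call that held in 5 of 10 alternatives; without the 2 adult cells of merged cluster 1, an alternative chosen after the data were seen, the log2 fold was 0.97, below the 2-fold limit.

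Serpinf1, Serpinh1 and Serping1 are linked to the extracellular matrix or blood. Serpinf1, pigment epithelium-derived factor, which does not inhibit proteases, was lower in the adult library, at 0.138 (19 UMI) against 0.772 (142 UMI) at P4, 5.59-fold (3.45 to 9.56), and in all 10 alternatives. It had a UMI in 4.19% of adult cells and 38.0% of P4 cells, and in 0.311% of adult and 6.08% of P4 cells thinned to 1000 UMI. Serpinh1, the collagen chaperone Hsp47, stood at 1.41 in the adult and 2.72 at P4, within the 2-fold limit, and adult clusters 0 and 4 together stood at 1.28, 2.13-fold below P4 (1.66 to 2.77), a call that held in 5 of 8 alternatives. Fibroblast markers moved with both genes, with all 8 detected at each age and none at 0. They summed to 2.37 per 10000 in the adult library and 6.70 at P4, with per-cell sums of 0 to 29.8 (median 0) in the adult and 0 to 49.3 (median 5.95) at P4. Of 7 measured, 5 were lower in the adult, and their part in the result was not tested. Serping1, the C1 inhibitor of complement, stood at 0.341 in the adult and 0.451 at P4 and did not differ beyond counting error (0.517 to 1.10). Among adult clusters it stood at 0.526 in cluster 0 and 0.186 in cluster 1, a ratio of 2.84 (1.36 to 6.33). Single cells held 9 and 5 of the 27 UMI in cluster 0, and the call held in 4 of 9 alternatives.

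In adult cluster 5 the matrix-linked members rested on the 7 cells with smooth muscle markers. Serpinh1 had 34 of its 36 UMI there, Timp3 all 12 and Timp4 16 of 17, while Serpinf1 had 4 of 9. Few cells held most of these UMI: 2 cells had 11 Serpinh1 UMI each and 1 had 7, and single cells had 9 and 6 Timp4 UMI. The smooth muscle markers summed to 79.2 in cluster 5 and 3.20 in cluster 0, with 8 of 8 detected in both. The fibroblast markers took 79 of 112074 UMI in cluster 5 (7.05 per 10000, 7 of 8 detected, Pdgfra at 0) and 118 of 512857 UMI in cluster 0, with 5 of 6 measured markers higher in cluster 5 and 1 lower. Multiciliated markers summed to 12.2 in cluster 5 and 3.04 in cluster 0, with 12 of 12 detected in both and 8 of 9 measured higher in cluster 5. The same 7 cells held 128 of the 137 multiciliated marker UMI of cluster 5, at 22.1 per 10000, and the part of these markers in the result was not tested. Serpinh1 (3.21 against 1.29), Timp3 (1.07 against 0.331) and Timp4 (1.52 against 0.331) were called higher in cluster 5 than in cluster 0. Without those 7 cells the log2 folds were -1.56 for Serpinh1, -2.11 for Timp3 and -0.60 for Timp4. Of 12 members then measured, 2 were higher and 5 lower, in place of 5 and 2 of 14. The share of all genes was not computed without these cells. Serpina1e was not among the members that turned, with a level of 18.1 in the remaining cells.

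The clade B serpins, which act inside cells, split between the adult clusters. Serpinb1a, an inhibitor of neutrophil elastase and related enzymes, had 54 UMI in cluster 0 and 6 in cluster 1, a 10.4-fold higher level (4.48 to 29.6). Serpinb6b had 46 UMI in cluster 0 and 8 in cluster 1, 6.64-fold higher (3.10 to 16.3). Cluster 0 held 79.4% of the adult UMI of Serpinb1a and 78.0% of those of Serpinb6b, with 36.6% of all UMI. In the part of cluster 0 that the joint clustering placed in merged cluster 2 (79 cells), Serpinb1a stood at 1.15 and Serpinb6b at 1.01. The part placed in merged cluster 4 (49 cells) had 4 UMI of Serpinb1a and 2 of Serpinb6b among 63717 UMI in all. At that total 3 counts make a level of 0.471, so these counts are too few to show that the parts differ. The median depth was 5000.0 UMI in the part in merged cluster 2 and 1186.0 in the other part.

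Serpinb6a, a relative of Serpinb6b on the same chromosome, went the other way, at 0.702 in cluster 0 and 1.69 in cluster 1, 2.40-fold lower (1.63 to 3.62); the call was held in 6 of 9 alternatives. It overlaps Nqo2 and Ripk1 on the other strand. Serpinb11 was counted almost solely in cluster 1, with 48 of 50 adult UMI and 0 UMI at P4. Cluster 0, with 0 UMI of 512857, was 13.9-fold lower than cluster 1 when set to the floor of 3 counts (exact lower limit, 10.8). The cluster 1 level of 0.810 (0.597 to 1.07) rested on 22 of 183 cells. In the thinned cells the shares were 0% in cluster 0 and 6.38% in cluster 1. Serpinb9, the inhibitor of granzyme B, had 20 UMI in the adult library and 14 at P4, too few to be measured in any comparison.

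Between the ages, Serpinb1a was called higher in adult clusters 0 and 4 than at P4 in all 8 alternatives, and in the whole adult library in 5 of 10. On the shared genes Serpinb1a stood at 0.494 in the adult and 0.190 at P4 (ratio 2.60, interval 1.70 to 4.02), and with adult clusters 0 and 4 alone at 1.01, a ratio of 5.31 (3.43 to 8.34). Serpinb6b, not measured between whole libraries, was at 0.851 in adult clusters 0 and 4 and 0.158 at P4 (ratio 5.40, interval 3.34 to 8.88). That call held in 6 of 8 alternatives, and without cells holding 2 or more non-epithelial markers, which left 96 adult and 6 P4 cells, the log2 fold was -0.52. Serpinb6a was within 2-fold in both comparisons. Between P4 clusters, Serpinb6b had 2 UMI in cluster 1 and 27 in cluster 0 (ratio 0.163, interval 0.0188 to 0.650), while Serpinb1a stood at 0.166 in cluster 1 and 0.164 in cluster 0.

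**Figure D4:**
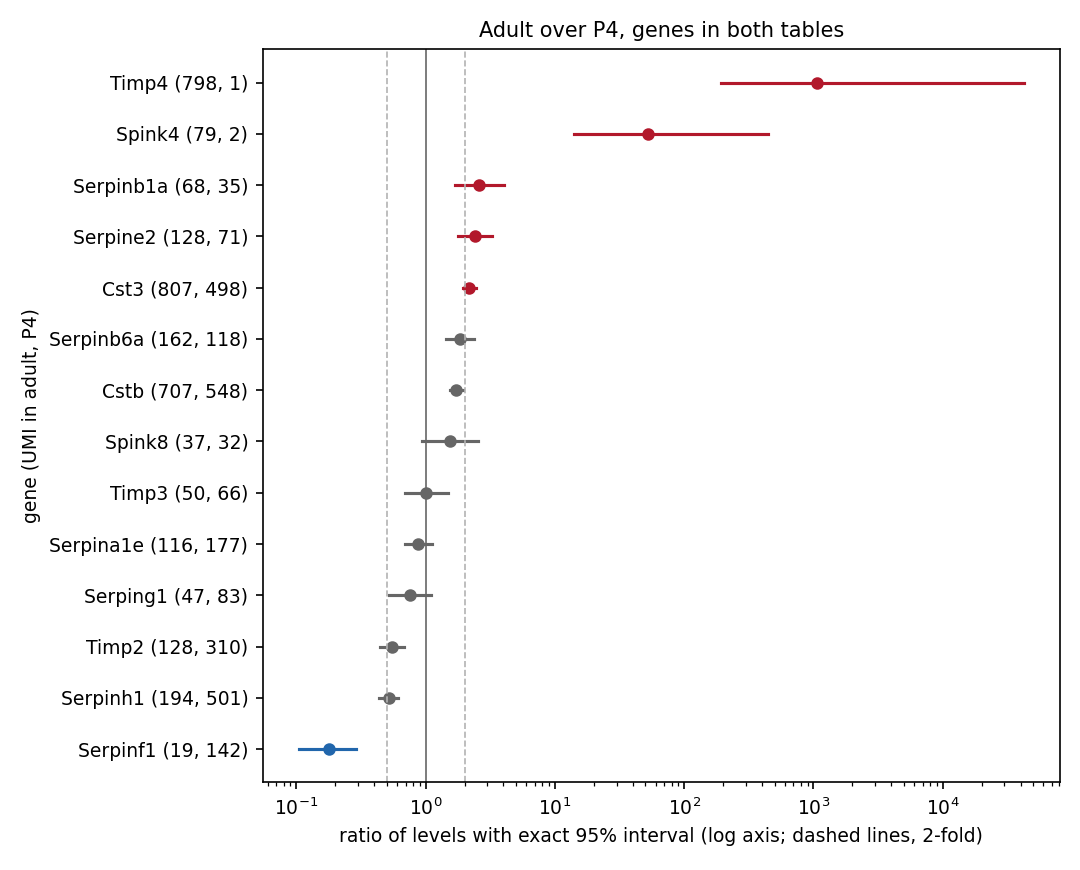
Ratio of levels, adult over P4, for the 14 measured members on a log axis, with exact 95% intervals for counting error and UMI counts beside each name. Red genes are at least 2-fold higher and blue genes at least 2-fold lower in the adult after adding 0.1 per 10000. Timp4 (798 and 1 UMI) and Spink4 (79 and 2 UMI) lie far to the right, and Serpinf1 (19 and 142 UMI) lies lowest.

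Adult cluster 3, which carried multiciliated markers at a summed 123 against 171 in cluster 1, differed from cluster 1 in inhibitors as well. Timp4, Serpine2 and Serpinb11 were lower in cluster 3 and Timp3 was higher, in all 9 alternatives each. Serpine2 had 2 UMI in cluster 3 against 111 in cluster 1 (ratio 0.0867, interval 0.0104 to 0.320), and Serpinb11 had 1 against 48, 9.98-fold lower with an interval of 1.71 to 402. Below the count of 20 used for naming, Spink2, known as an acrosin inhibitor of sperm, had 11 UMI in cluster 3 and 0 in cluster 1. Against the floor of 3 counts this was 17.6-fold higher (exact lower limit, 12.1). Serpina9 had 9 UMI in cluster 3 and 2 in cluster 1 (ratio 21.6, interval 4.48 to 206); both genes were chosen after their values were seen.

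The proteases that these inhibitors act on were counted from lists of 27 metalloproteinases, 30 serine proteases and 13 cysteine proteases. In adult cluster 0, where Timp2 was higher and Timp4 lower than in cluster 1, 4 of 5 measured metalloproteinases were higher (Mmp14, Mmp23, Adam10 and Adamts1) and 0 lower, beside 12.7% higher and 23.0% lower of all measured genes. Mmp23, a membrane-anchored metalloproteinase, stood at 1.31 in cluster 0 and 0.304 in cluster 1. The others rested on few UMI: Mmp14 had 15 in cluster 0 and 3 in cluster 1, Adam10 21 and 9, and Adamts1 23 and 6. Among serine proteases, 2 of 5 were higher, Plat, a plasminogen activator, at 4.33 in cluster 0 and 0.506 in cluster 1, and Hpn. Of 8 measured cysteine proteases, 2 were higher, the cathepsin genes Ctsb (12.9 in cluster 0 and 2.95 in cluster 1) and Ctsc, and 0 were lower. In cluster 4 over cluster 0, 2 of 7 measured cysteine proteases were higher, Ctsb (42.9 against 12.9) and Ctsl (6.05 against 1.74). Of 5 measured serine proteases 1 was higher, Plat (9.98 against 4.33), and of 5 metalloproteinases 1 was lower, Mmp23 (1 UMI against 67). Of all measured genes there, 8.99% were higher and 10.7% lower. Between adult and P4, Ctsb (10.3 against 4.29) and Ctsh (2.85 against 1.05) were higher and 0 of 10 cysteine proteases lower, beside 11.5% higher and 10.4% lower of all genes. Of 7 metalloproteinases 0 were higher and 3 lower (Mmp14, Adam15 and Adamts1), and of 9 serine proteases 2 were lower, Klk8 (0 against 45 UMI) and Klk10 (3 against 56 UMI).

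Inhibitors of other families came from a list of 25. In the adult over P4 comparison 3 of 8 measured differed, beside 21.8% of all genes. Of these 2 were higher, Wfdc18 (5126 against 92 UMI) and Wfdc1 (1.18 against 0.147), and 1 was lower, Wfdc2 (1.95 against 13.9); the 3 are small secreted proteins with whey acidic protein domains. Of the list of 9 serpin receptors and cofactors, 2 of 5 measured were higher in the adult, Sorl1 (0.574 against 0.201) and Sdc1 (0.741 against 0.256), and Sdc4 was lower (3.25 against 9.86).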

How the data were processed

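Single-cell RNA was measured in 1 adult and 1 P4 oviduct library, made with 10x Chromium 3' V2 chemistry per the labels' protocols. Per the submitters' processing notes, the tools were Seurat 2.3.4 and Cell Ranger, whose version is unstated, with the build mm10; which step each did is not given in the sources used here. The authors deposited raw UMI counts per gene and cell, with no normalization, and tables of cluster numbers. Values were checked to be whole numbers.

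Each adult barcode was counted once, taking the column of the first prefix. Counts were pooled per cluster or library and divided by the total UMI; comparisons between ages used the genes of both tables. Exact Poisson, Clopper-Pearson and conditional ratio intervals (95%) were computed in Python 3.11.15 with scipy 1.17.1. A side with 0 counts was set to a floor of 3 counts over the group. To set shares beside each other at 1 depth, 1000 UMI were drawn per cell, which left out shallower cells and kept 322 in the adult and 263 at P4. No doublet caller was run, and background RNA was not measured. The fold and interval code was tested on simulated data. A member was named if it had at least 20 UMI in either library, and the Serpina1 copies always; 1 member is not reported here. Members, gene lists and comparisons were chosen with earlier results of these data known. Gene positions and transcripts come from GENCODE M21 (GRCm38), and promoters from RefSeq, which held 18 of the 23 genes looked up. Alternatives were another pseudocount, a mean over cells, other filters on the share of cells, other scalings, thinning, the second prefix, the summed Serpina1 copies, the merged table and leaving out deep, non-epithelial, smooth muscle or multiciliated cells.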

Additional observations from a re-analysis of the deposited data

How the results depend on the processing

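Of 779 member folds recomputed under an alternative, 649 stayed within their counting interval or within 0.1 of the reported log2 fold, 118 moved further and 12 that were at least 2-fold changed direction. The number of members that differed at least 2-fold was within 1.5 times the reported one in 59 of 82 cases. The share of all genes was computed for the reported setting only, so these counts have none beside them. In cluster 0 over 1 (10 reported) it was 6 with a pseudocount of 0.5, 5 with a 25% filter on the share of cells and 4 in thinned cells. In cluster 4 over 0 (5) it was 1, 2 and 1 under these, 8 with no filter, 3 without the 5% deepest cells, 2 without cells holding 2 or more non-epithelial markers and 3 with the second prefix. In cluster 3 over 1 (7) it was 2 with the 25% filter and 4 thinned, and in cluster 5 over 0 (7) it was 3 and 2, and 4 without non-epithelial marker cells. In P4 cluster 1 over 0 (3) it was 1 with the pseudocount of 0.5 and 1 with the 25% filter, and 0 without non-epithelial marker cells, which left 2 and 4 cells. In adult over P4 (6) it was 2 and 3 under the first pair, and in adult clusters 0 and 4 over P4 (9) it was 5 with the 25% filter, 3 thinned and 3 without non-epithelial marker cells, which left 6 P4 cells. A stricter filter and thinning leave fewer genes or counts by construction, and a higher pseudocount shrinks the folds of low genes; for the other settings the cause was not tested.

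Changed directions, as log2 folds, were Serping1 in cluster 4 over 0 without non-epithelial marker cells (0.17) and Serpinb6b in adult clusters 0 and 4 over P4 likewise (-0.52). In cluster 5 over 0, thinned cells gave Serpinb6b 0.54, Serpinf1 -0.92, Timp3 -1.48 and Timp4 -2.86; leaving out non-epithelial marker cells gave Serpinh1 -1.61, Timp3 -1.35 and Timp4 -0.14; and leaving out the smooth muscle cells gave Serpinh1 -1.56, Timp3 -2.11 and Timp4 -0.60.

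No paired analysis was possible because each age has 1 library. Levels under about 3 counts per group, and every call in adult clusters 3, 4 and 5 with few UMI, are limited by depth.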
